A study of Rattus norvegicus with 3 samples.

Results

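The connexin genes of the rat carotid artery described here are Gja1, Gja4, Gja5, Gjb1, Gjb2 and Gjc1. They are 6 of the 15296 genes that array probes could be matched to, taken by the RefSeq accession that each probe carries. The connexin family set the choice of members, except that Gjb2 was picked because its signal was lower at day 21 than at day 7. Its values in that comparison are therefore a description, and so is its day 7 ratio to uninjured, which uses the same day 7 signal. All 6 genes had a probe on every array, but the Gja5 probe of the day 7 array was not the one on the other arrays.

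Whole common carotid arteries of male Wistar rats gave the RNA. The 3 groups were uninjured arteries, balloon-injured arteries at day 7 and balloon-injured arteries at day 21. The labels give no age and do not say whether an array holds RNA of 1 rat or of several. Balloon injury strips the endothelium and stretches the muscular wall. The study's design speaks of 2 experiments at each time, of which 1 one-colour array per group was analysed here. Without replicates nothing was tested, and each difference is one between 2 arrays. The uninjured and day 21 arrays share a design and a scan, while day 7 was hybridised to a different design, scanned apart and read with later software. For every comparison with day 7, time after injury and array batch cannot be told apart. In RNA of a whole artery, fewer cells of a type and less RNA per cell cannot be told apart either.

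Connexins are membrane proteins that assemble into hexameric half-channels, which dock between neighbouring cells to form gap junctions that pass ions and small metabolites. In arteries, Gja4 (Cx37) and Gja5 (Cx40) are known as the main connexins of the endothelium, and Gja1 (Cx43) and Gjc1 (Cx45) as connexins of smooth muscle. Gjb1 (Cx32) is best known from hepatocytes and myelinating Schwann cells, and Gjb2 (Cx26) from epithelia and the inner ear.

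The 250 bases before the annotated start of 4 members are shown because the results turn on them: Gjb2 was high on the day 7 array alone, Gja4 was higher on both injured arrays and Gja5 at day 21, and Gja1 was lower on both injured arrays. Sequences are from RefSeq on the GRCr8 build and read 5′ to 3′. Capitals mark matches on either strand to the GC box GGGCGG, the TATA box TATAAA and the AP-1 element TGANTCA.
Gjb2 (GRCr8, chr15:35381954-35382203, minus strand): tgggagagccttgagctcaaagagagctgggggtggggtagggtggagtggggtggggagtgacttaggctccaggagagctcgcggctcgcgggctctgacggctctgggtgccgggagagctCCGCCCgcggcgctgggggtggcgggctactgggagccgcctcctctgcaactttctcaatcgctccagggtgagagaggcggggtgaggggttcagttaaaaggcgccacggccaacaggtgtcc
Gja4 (GRCr8, chr5:144920325-144920574, minus strand): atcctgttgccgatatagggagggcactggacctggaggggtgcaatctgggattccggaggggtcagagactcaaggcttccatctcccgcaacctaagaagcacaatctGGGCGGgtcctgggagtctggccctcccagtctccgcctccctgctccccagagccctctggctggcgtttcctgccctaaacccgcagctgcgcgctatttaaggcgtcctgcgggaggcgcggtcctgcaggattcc
Gja5 (GRCr8, chr2:187290977-187291226, plus strand): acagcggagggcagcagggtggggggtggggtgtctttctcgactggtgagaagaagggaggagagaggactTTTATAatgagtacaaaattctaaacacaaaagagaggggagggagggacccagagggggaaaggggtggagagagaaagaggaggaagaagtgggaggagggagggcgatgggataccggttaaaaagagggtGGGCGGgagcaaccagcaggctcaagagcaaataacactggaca
Gja1 (GRCr8, chr20:36302314-36302563, plus strand): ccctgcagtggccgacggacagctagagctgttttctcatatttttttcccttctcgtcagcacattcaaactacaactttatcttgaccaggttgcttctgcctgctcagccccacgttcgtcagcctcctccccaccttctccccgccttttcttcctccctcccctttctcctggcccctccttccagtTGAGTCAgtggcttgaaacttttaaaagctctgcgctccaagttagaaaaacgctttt

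The GC box, the element read by Sp1-type factors, was found once each before Gjb2 (126 bases before the start), Gja4 (139 bases) and Gja5 (44 bases), and 30.5% of all 33469 promoter windows of this length hold it. The Gja1 window held an AP-1 match 58 bases before the start, found in 6.34% of all windows, and Gja5 a TATAAA match 178 bases before it, found in 12.9%. CACCC, the core read by Krüppel-like factors, matched on either strand 7 times before Gjb2, 5 times before Gja5 and 1 time before Gja4. It is in 49.2% of all windows, and 1 of the Gja5 matches shares 1 base with the GC box. The share of G and C was 67.2% before Gjb2, 63.2% before Gja4, 54.8% before Gja5 and 51.2% before Gja1, against a median of 51.2% over all windows. A match describes the letters and is not a measured binding site.

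Signals are given as multiples of the array's 75th percentile of signal over the 10583 probes present on all 3 arrays, and log2 ratios as the difference of such signals. Day 21 was compared with uninjured on all 40989 probes of their common design, which makes a log2 ratio 0.15 higher than the shared probes do. The figure after ± is the SD of the log2 ratio that replicate spots within an array give, and it is technical only. A gene well above background on both arrays was called higher or lower at 2-fold, a description that involves no test. Of the 5 members with a shared probe, 4 were well above background on all 3 arrays, and Gjb2 was not on the uninjured array.

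**Figure D1:**
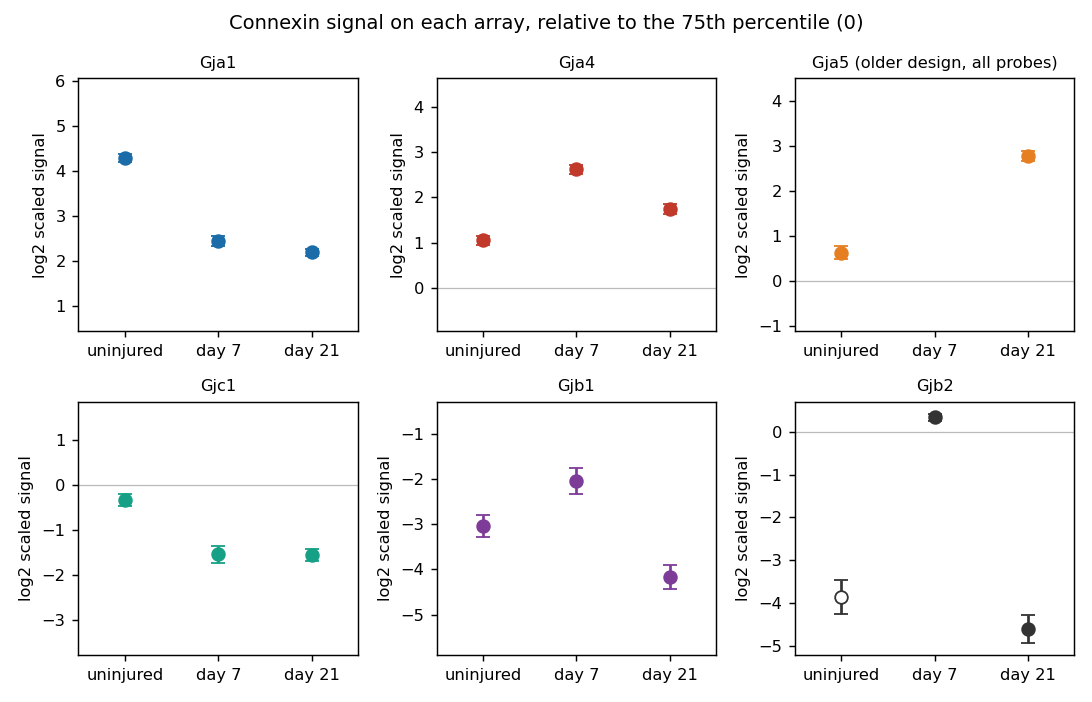
Signal of each connexin on the 3 arrays, as log2 of the signal over the array's 75th percentile (0 on the y axis). Bars are the technical SD, the open circle is not well above background, and Gja5 is on the scale of the older design, where day 7 has no value. Gja1 and Gjc1 were highest in the uninjured artery, Gja4, Gjb1 and Gjb2 at day 7, and Gja5 was higher at day 21 than in the uninjured artery.

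Gja1, which encodes the most widely expressed connexin and links smooth muscle cells to one another, was lower in both injured arteries. It had 10 replicate spots on each array. The scaled signal was 19.6 in the uninjured artery, 5.47 at day 7 and 4.58 at day 21. Single spots spanned 18.3 to 22.0 in the uninjured artery, 4.82 to 6.07 at day 7 and 4.20 to 4.98 at day 21. Every spot of the uninjured array thus lay above all those of both injured arteries, whereas the day 7 and day 21 spots overlapped. Gja1 was 3.58-fold lower at day 7 than in the uninjured artery (log2 ratio -1.84 ± 0.15, and -3.06 under scaling of each array on all probes of its design, where the median of all genes was -1.23). At day 21 it was 3.86-fold lower than in the uninjured artery (-1.95 ± 0.12). Only 258 of the 5262 genes well above background on both arrays had a lower ratio at day 7, and 195 of 9422 at day 21. Between the injured arteries the ratio of day 21 to day 7 was -0.26 ± 0.14, and its sign turned under 3 of 7 other ways of processing, the authors' deposited table among them.

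Gjc1, a connexin of vascular smooth muscle and of the cardiac conduction system, was also lower after injury. Its single spot gave a scaled signal of 0.789 in the uninjured artery, 0.345 at day 7 and 0.339 at day 21. The signals of both injured arteries lay within their technical SD of each other (log2 ratio of day 21 to day 7 -0.02 ± 0.23, between -0.37 and 1.35 under other processing). Gjc1 was 2.29-fold lower at day 7 (-1.19 ± 0.23) and 2.10-fold lower at day 21 (-1.07 ± 0.18) than in the uninjured artery. The day 7 ratio depended on the processing: it was -0.76, short of 2-fold, with normexp background correction, -2.41 under own-design scaling and -2.33 in the authors' deposited table. At day 21 it was short of 2-fold in 2 of 7 alternatives, between -1.29 and -0.59 over all 7.

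Markers of contractile smooth muscle moved with these connexins. On the shared probes the summed scaled signal of 7 such genes was 515 in the uninjured artery, 71.4 at day 7 and 81.8 at day 21, and all 7 were well above background on every array. Of the list, 6 of 7 genes were at least 2-fold lower at day 7 (median log2 ratio -2.85) and 12 of 12 at day 21 (median -2.27). Tagln, an actin-binding protein of contractile smooth muscle, was at -2.20 ± 0.13 at day 7 and -2.39 ± 0.13 at day 21. The tropomyosins Tpm2 and Tpm1, which line actin filaments, were at -3.80 and -2.85 at day 7 (± 0.13 each). At day 21 they were at -2.57 and -2.14 (± 0.13 each). The Tpm2 values of day 7 and day 21 come from different probes, so their difference is not one between the days alone. On its shared probe Tpm2 was at 0.66 ± 0.15 at day 21 against day 7. The part of smooth muscle markers in the Gja1 and Gjc1 ratios was not tested.

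Gja4, an endothelial connexin, was higher in both injured arteries. The scaled signal of its single spot was 2.06 in the uninjured artery, 6.17 at day 7 and 3.34 at day 21. Day 7 was the highest of the 3 arrays and the uninjured artery the lowest, each step being larger than the technical SD. Gja4 was 2.99-fold higher at day 7 (1.58 ± 0.14), with a lower ratio for 4877 of 5262 genes, and 1.79-fold higher at day 21 (0.84 ± 0.15) than in the uninjured artery. Over 7 alternatives its log2 ratio at day 7 ran between 0.36, under scaling of each array on all probes of its design, and 1.71. Relative to the median of all genes, Gja4 stood 1.59 higher under that scaling and under the reported one. The 2 must be equal, because either scaling moves every gene of an array by the same amount. At day 21 Gja4 was 1.84-fold lower than at day 7 (-0.88 ± 0.15), and at 0.49, the opposite direction, under own-design scaling.

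Gja5, the connexin that marks arterial endothelium, was compared at day 21 against uninjured alone, because its probe on those arrays is not on the day 7 design. On the scale of the older design the signal was 6.83 at day 21 and 1.56 in the uninjured artery. Gja5 was therefore 4.39-fold higher at day 21 (2.13 ± 0.17), the largest ratio among the 5 members well above background on both arrays. A lower ratio was found for 9123 of 9422 genes, and 6 alternatives gave 1.84 to 2.61. In the authors' deposited table, at the probe of the day 7 design, Gja5 was listed at 7.86 log2 units for the uninjured artery, 7.24 for day 7 and 9.89 for day 21. In that table day 21 was 2.03 log2 units above uninjured and day 7 was -0.62 against uninjured. How the table has values for these arrays at a probe absent from their design was not stated in the labels.

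Most endothelial markers were higher on both injured arrays, as Gja4 was, and at day 21, where Gja5 was compared. The summed scaled signal of 10 endothelial genes on the shared probes was 3.30 in the uninjured artery, 13.3 at day 7 and 12.4 at day 21. At day 7, all 7 of 7 with a ratio were 2-fold or more higher than in the uninjured artery (median 2.03), and at day 21 8 of 12 were (median 1.44). The other 4 lay within 2-fold at day 21. Cdh5 was at -0.21 ± 0.23, Flt1 at 0.03 ± 0.33, Eng at 0.68 ± 0.19 and Plvap at 0.85 ± 0.29. Of day 21 against day 7, 9 of 9 lay within 2-fold (median -0.06). Kdr, the main endothelial VEGF receptor, was at 1.53 ± 0.16 at day 7 and 2.46 ± 0.17 at day 21. Esam, an adhesion molecule of endothelial junctions, was at 1.85 ± 0.15 at day 7 and 1.28 ± 0.17 at day 21, and the endothelial transcription factor Sox18 at 2.48 ± 0.16 and 2.56 ± 0.18 on those days. Tek, Tie1 and Pecam1 were not well above background on the uninjured array, and Sox17 not on any array at its shared probe. Pecam1 was at least 1.67-fold higher at day 21 than in the uninjured artery. Macrophage markers were also higher: 12 genes summed to 10.9 in the uninjured artery, 141 at day 7 and 341 at day 21. Against uninjured, 9 of 10 passed 2-fold upwards on day 7 (median 2.95), as did 14 of 14 on day 21 (median 4.47). Unlike Gja4, their sum was highest at day 21. The part of either cell type's markers in the Gja4 and Gja5 ratios was not tested.

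**Figure D2:**
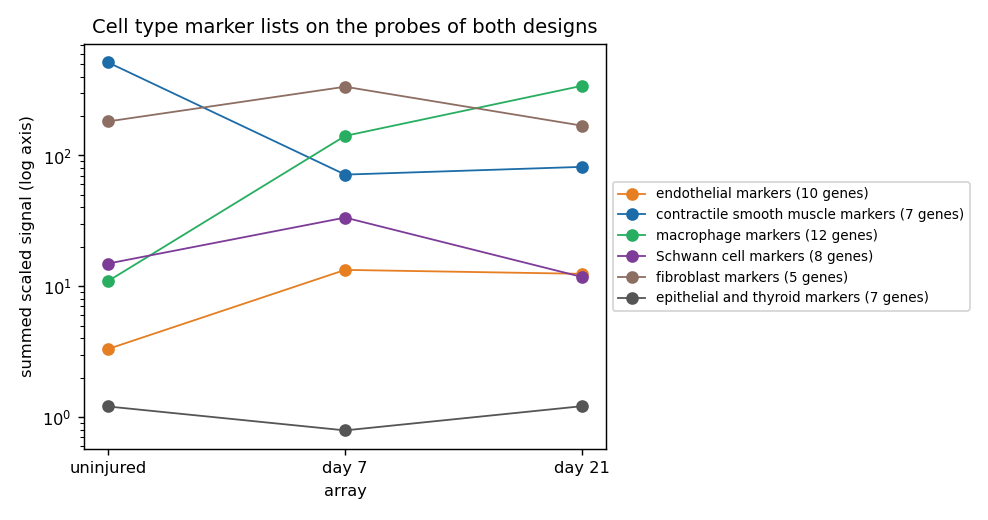
Summed scaled signal (log y axis) of cell type marker lists on the probes of both designs, for the uninjured, day 7 and day 21 arrays. Endothelial markers summed to 3.30, 13.3 and 12.4, contractile smooth muscle markers to 515, 71.4 and 81.8, and Schwann cell markers to 14.9, 33.5 and 11.7. Of the Schwann cell sums, Pmp22 alone gave 13.2, 13.5 and 10.1.

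Gjb2 stood out on the day 7 array. Its single spot in the uninjured artery read 8.77 intensity units, not well above background. At day 7 the 10 replicate spots read between 270 and 317 units, with a median of 287. At day 21 the single spot read 15.6 units, which was well above background. The highest negative control spots without a flag read 2.81 units (uninjured), 3.63 units (day 7) and 4.15 units (day 21). Scaled, Gjb2 was at 0.0691 in the uninjured artery, 1.26 at day 7 and 0.0407 at day 21. All day 7 spots lay far above the other arrays, and the uninjured and day 21 signals were both near the background limit.

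Under the processing reported here, Gjb2 was at least 18.3-fold higher at day 7 than in the uninjured artery (4.19 ± 0.40). It is a bound because the uninjured signal was not well above background, and it uses that dim reading itself. At day 21 it was 31.1-fold lower than at day 7 (-4.96 ± 0.34), and 9 of 5650 genes had a lower ratio. This is the contrast that Gjb2 was picked from. The ratio of day 7 to uninjured uses the same day 7 reading, so it is not free of that choice. No fold is given for day 21 against uninjured, where the bound does not exceed 1. In the authors' deposited table Gjb2 was listed at 3.64 log2 units for the uninjured artery, 8.11 for day 7 and 3.60 for day 21. The log2 ratio of day 7 to uninjured was 1.81 with normexp and 4.47 in that table, the range over 7 alternatives. It was 2.97 under own-design scaling. The 18.3-fold bound thus holds for the reported processing alone.

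**Figure D3:**
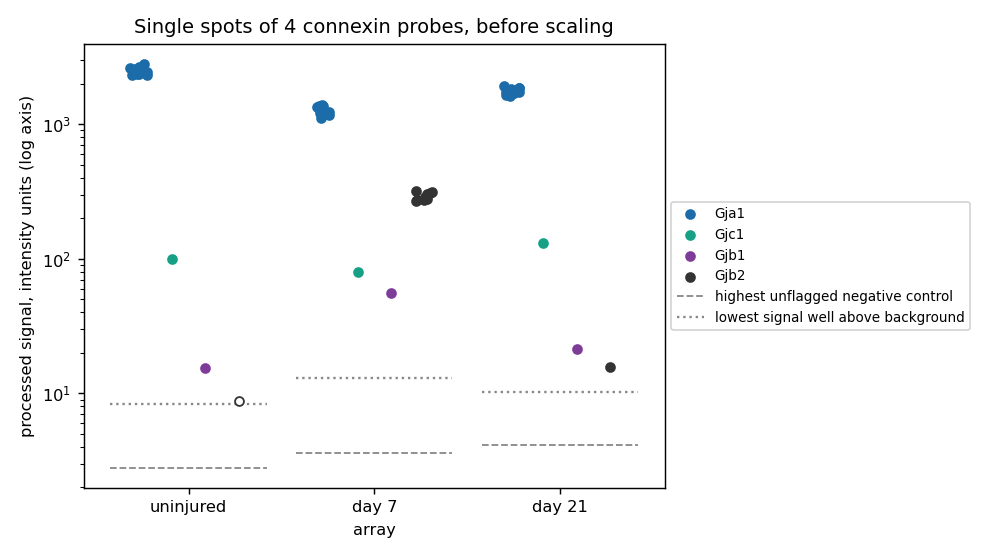
Processed signal in intensity units (log y axis) of every spot of 4 connexin probes on each array, before scaling. The open circle is not well above background, dashed lines are the highest negative control spot without a flag and dotted lines the lowest signal well above background on that array. The 10 Gjb2 spots at day 7 lie between 270 and 317 units, against single spots of 15.6 units at day 21 and 8.77 units in the uninjured artery.

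Epithelial and thyroid markers, whose cells are not part of an artery, were low on all arrays. On the shared probes 7 of them summed to a scaled signal of 1.20 in the uninjured artery, 0.788 at day 7 and 1.21 at day 21. Of these 7 genes, 2 were well above background in the uninjured artery, 4 at day 7 and 3 at day 21. Epcam, Krt5 and Krt19 were not well above background on any of the 3. Cdh1 (E-cadherin), the adhesion molecule of epithelial junctions, was well above background at day 7 alone. It was at least 1.77-fold higher there than in the uninjured artery, and at least 4.87-fold lower at day 21 than at day 7. The technical SD of its day 7 signal was 0.72 on the log2 scale. Cldn4, an epithelial tight junction protein, passed the limit at day 7 and day 21 and was highest at day 21 (2.25 ± 0.87 against day 7). Against uninjured, Krt14 was at -1.17 ± 0.20 and Krt8 at -0.49 ± 1.35 at day 7. These were the 2 genes of the list with signal on both arrays, 0 of them at least 2-fold higher and 1 lower. Cdh1 was thus highest on the same array as Gjb2, and Cldn4, Krt14 and Krt8 were not. Over 7 genes, neutrophil markers summed to 0.656 in the uninjured artery, 4.0 at day 7 and 2.60 at day 21. Fibroblast markers summed over 5 genes to 182 in the uninjured artery, 336 at day 7 and 169 at day 21. The fibroblast sum followed Col1a1, a collagen chain, which alone of the 5 genes was highest at day 7, at 126 in the uninjured artery, 303 at day 7 and 116 at day 21. The median ratio of the 5 was -0.26 for day 7 against uninjured and 0.36 for day 21 against day 7. The Schwann cell list, described below beside Gjb1, was also highest at day 7. Its median log2 ratio was 3.02 at day 7 against uninjured and -4.13 at day 21 against day 7. Of its genes, 5 of 6 were at least 2-fold higher in the first comparison and 3 of 5 lower in the other. The part of epithelial, neutrophil, fibroblast and Schwann cell markers in the Gjb2 signal was not tested.

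Gjb1, the connexin of myelinating Schwann cells, was dim on all arrays. Its single spot read 15.5 intensity units in the uninjured artery, 55.8 at day 7 and 21.3 at day 21, well above background each time. The scaled signals were 0.122, 0.242 and 0.0556, highest at day 7 and lowest at day 21. Gjb1 was 1.98-fold higher at day 7 than in the uninjured artery (0.99 ± 0.38), a sign that turned under own-design scaling (-0.23). At day 21 it was 1.99-fold lower than in the uninjured artery (-0.99 ± 0.36). It was 4.36-fold lower at day 21 than at day 7 (-2.12 ± 0.39), with 6 alternatives between -2.12 and -0.75. Replicated probes as bright as Gjb1 on the day 7 array had spot SDs between 0.039 and 0.93 on the log2 scale, so the error of a single spot there is itself uncertain.

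Schwann cell markers were highest on the same array. On the shared probes 8 of them summed to 14.9 in the uninjured artery, 33.5 at day 7 and 11.7 at day 21. Pmp22 alone gave 13.2, 13.5 and 10.1 of these sums. At day 7, 5 of 6 were at least 2-fold higher than in the uninjured artery (median 3.02), at day 21 1 of 8 was higher and 2 lower (median -0.84), and 3 of 5 were lower at day 21 than at day 7 (median -4.13). Pmp22, a myelin protein that fibroblasts express too, was at 0.03 ± 0.13 at day 7 and -0.23 ± 0.13 at day 21. Sox10, the transcription factor of the Schwann cell lineage and a known activator of Gjb1, was at 4.10 ± 0.17 at day 7 and -0.77 ± 0.19 at day 21 against uninjured, and at -5.02 ± 0.16 at day 21 against day 7. S100b was not well above background on any array. The Schwann markers' part in the Gjb1 ratios was not tested.

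The counts of members past 2-fold are set here beside those of all genes. At day 7 against uninjured, 1 of the 4 members well above background on both arrays was at least 2-fold higher, where 16.1% of the 5262 genes were, and 2 were at least 2-fold lower, where 16.3% were. With so few members, 1 gene decides each share. At day 21 against uninjured it was 1 of 5 higher, where 9.12% of 9422 genes were, and 2 of 5 lower, where 13.7% were. At day 21 against day 7, 0 of 5 were higher, where 10.8% of 5650 genes were, and 2 of 5 lower, where 19.9% were, Gjb2 being chosen for it. The members' median log2 ratios were -0.10, -0.99 and -0.88 in these comparisons, and those of all genes -0.01, -0.20 and -0.19. The same shares of all genes apply to the counts of the marker lists above, which were given without them. Each array enters 2 of the 3 comparisons. The split of genes depended on scaling: under own-design scaling 181 genes were higher and 3131 lower at day 7, against 847 and 858.

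**Figure D4:**
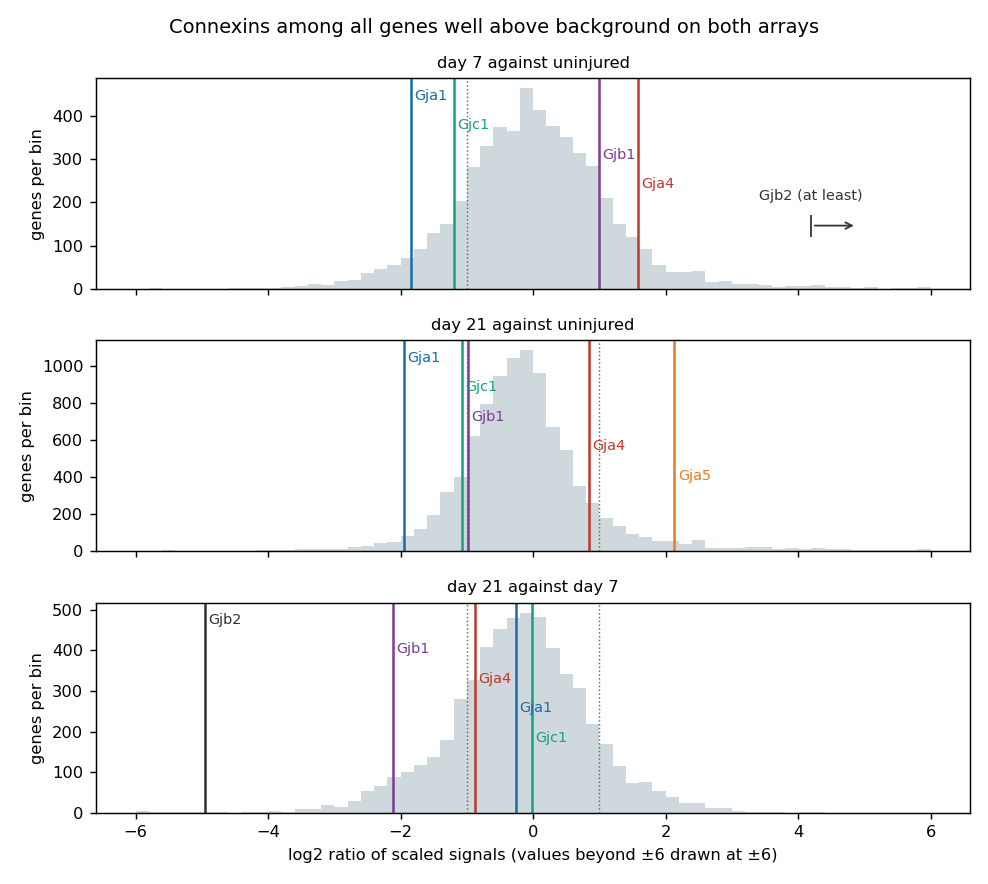
Histograms of log2 ratios (x axis, bins of 0.2) of all genes well above background on both arrays, with coloured lines at the connexins and dotted lines at 2-fold. Gja1 lies at -1.84 and -1.95 against uninjured, Gja5 at 2.13 at day 21, and Gjb2 at -4.96 between the days. The arrow at day 7 starts at the Gjb2 bound of 4.19.

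Gjb6, the connexin next to Gjb2 on GRCr8 chromosome 15, was not well above background on any array. Its 10 spots at day 7 ranged from 2.84 to 40.1 units and 4 of them were well above background. Gjb5, which lies on chromosome 5 as Gja4 does, was 2.41-fold lower at day 21 than in the uninjured artery (-1.27 ± 0.17).

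Of 14 other connexins 10 had a probe on the older design. At day 21 against uninjured, 5 were well above background on both arrays, 0 at least 2-fold higher and 2 lower, Gjb5 and Gjd4 (-1.31 ± 0.30). Of all genes, 9.12% were higher and 13.7% lower. Gja3 was at -0.55 ± 0.25. Gja6, well above background at day 21 alone, gave no bound above 1, and Gjd2 and Gje1 were not well above background on either of these arrays.

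Pannexins form channels like those of connexins without docking between cells. Panx1, the widely expressed member, passed the background limit at day 21 alone. Its day 21 signal exceeded uninjured at least 2.20-fold and day 7 at least 2.51-fold. As log2 ratios with their technical SD, these comparisons were at 1.20 ± 0.46 and 1.33 ± 1.22. Panx2 was 2.04-fold lower at day 21 than in the uninjured artery (-1.03 ± 0.35), and at -0.45 ± 0.89 at day 7. Panx3, known from cartilage and bone, was well above background at day 7 alone, at least 3.13-fold higher than in the uninjured artery, and at least 8.59-fold lower at day 21 than at day 7.

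Proteins that hold or move connexins at the membrane were mixed. At day 7 against uninjured, 2 of the 12 that could be measured lay 2-fold or more above and 2 below (median -0.36). These counts were near the shares of all genes, 16.1% higher and 16.3% lower. At day 21, 2 of 16 were higher and 3 lower (median -0.55), where 9.12% and 13.7% of all genes were. Vcl (vinculin), an actin anchor of adherens junctions, was at -2.90 ± 0.10 at day 7 and -1.31 ± 0.13 at day 21. Ccn3, a matricellular protein that binds Cx43, was at -2.13 ± 0.13 at day 21. Tjp1 (ZO-1), the scaffold that binds the tail of Cx43, was at 1.88 ± 0.28 at its brightest of 4 probes at day 21. Dab2, an endocytic adaptor, was at 1.62 ± 0.14 and 3.79 ± 0.15, and the desmosomal protein Pkp2 at 1.81 ± 0.25 at day 7. Ctnnb1 (beta-catenin), below the background limit on the uninjured array, exceeded it at least 4.86-fold at day 7 and, on day 21, at least 20.0-fold. Of day 21 against day 7, 4 of 13 were at least 2-fold higher and 2 lower (median -0.34), where 10.8% and 19.9% of all genes were.

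Kinases that phosphorylate Cx43 had 4 genes on the shared probes. Cdk1, the mitotic kinase, was at 6.13 ± 0.22 at day 7 and 4.41 ± 0.24 at day 21 against uninjured, and at -1.87 ± 0.12 at day 21 against day 7. Akt1 was at 1.22 ± 0.11 at day 7 and 0.22 ± 0.15 at day 21, and Prkcd at -0.53 ± 0.14 and -0.30 ± 0.15. At day 21 against uninjured 1 of 8 was at least 2-fold higher and 1 lower, Src at -1.25 ± 0.18. Of all genes, 9.12% were higher and 13.7% lower there.

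Of transcription factors known to act on connexin genes, 2 of 6 were at least 2-fold higher and 2 lower at day 7 against uninjured. At day 21, 4 of 14 were higher and 1 lower. Of all genes, 16.1% were higher and 16.3% lower at day 7, and 9.12% and 13.7% at day 21. Klf4, a Krüppel-like factor, was at -2.98 ± 0.12 at day 7 and -0.49 ± 0.13 at day 21. Sox17, an arterial endothelial factor, was at 2.30 ± 0.28 at day 21 at its brighter probe of 2. Tbx3 was at 2.11 ± 0.21 and Sp1 at 1.25 ± 0.19 at day 21, and Gata2 at -1.40 ± 0.53 and -1.76 ± 0.21 on the 2 days. Fos and Jun, which bind AP-1 elements, were at 0.77 ± 0.14 and -0.58 ± 0.16 at day 21 and were not on the shared probes. At day 21 against day 7, 1 of 7 was at least 2-fold higher (Klf4, 2.34 ± 0.14) and 2 lower, where 10.8% and 19.9% of all genes were.

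The genes whose pattern came nearest to a member were taken from 5167 genes well above background on all 3 arrays, by the distance of the log2 ratios of day 7 to uninjured and of day 21 to day 7. Nearest to Gja1 was Tmod1 (tropomodulin), which caps actin filaments, at -1.90 and -0.27, followed by Il17b (-1.83 and -0.14). Nearest to Gja4 were Kcnk5, a potassium channel (1.61 and -0.90), and Lrrcc1 (1.53 and -0.88). Mtmr7 (0.99 and -2.08) was nearest to Gjb1, and Ammecr1l (-1.22 and -0.06) to Gjc1. With 15 genes within 0.25 of Gja1, 39 of Gja4, 41 of Gjb1 and 65 of Gjc1, and technical SDs of that order, the order among them is not resolved. Gjb2 was left out because it was not well above background on the uninjured array.

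**Figure D5:**
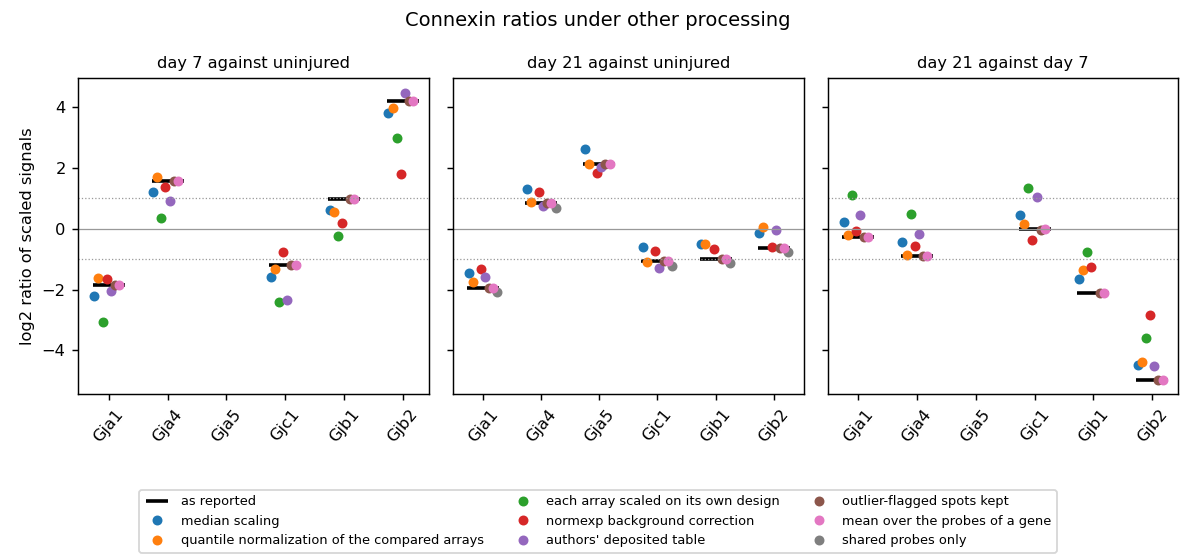
Log2 ratio (y axis) of each connexin in the 3 comparisons as reported (black bars) and under other processing (points), with dotted lines at 2-fold. Gja1 lies between -3.06 and -1.32 against uninjured, Gja5 at or above 1.84 at day 21, and Gjb2 at or below -2.83 between the days, while Gja1 and Gjc1 spread to both sides of 0 in that last comparison.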

How the data were processed

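Artery RNA was measured on Agilent arrays with Cy3 as the 1 dye, per the labels. The authors deposited spot intensity values read by Feature Extraction, which per the file headers was version 11.0.1.1 for day 7 and otherwise 10.7.3.1, the version the submitters' processing notes name. These signals are not normalized between arrays: their 75th percentiles were 49.6, 210 and 135 units for uninjured, day 7 and day 21. The authors' deposited table, in log2 units, lists 9260 probes, of which 3957 are not on the older design. Its normalization was not stated in the sources here, and its column medians are 7.64, 7.62 and 7.64 for uninjured, day 7 and day 21. Across 5294 shared probes it correlated with log2 scanner signal at r = 0.947, 0.977 and 0.951; the probes share arrays and depth.

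Spots that were controls or carried an outlier flag were dropped, spots of 1 probe were averaged as log2, and the 75th percentile was subtracted, over shared probes for comparisons with day 7 and over all probes otherwise. A probe was well above background if at least 50% of its spots were; those were 59.8%, 76.6% and 66.7% of probes on the uninjured, day 7 and day 21 arrays, and 0 spots were saturated. Probes were named by RefSeq accession (GRCr8 table): 17505 on the older design and 8032 of those shared. Of several probes of a gene the brightest was used. Where 1 array lacked signal, the bound divides the bright signal by a dim one. That is the gene's own dim signal or the dimmest signal that passed the background limit on that array, whichever is higher. A bound does not allow for the technical SD. The technical SD is that of the probe's own spots (5 or more) or is interpolated over signal from replicated probes; the number of arrays limits the precision. Named genes are all 6 members, all measured connexins and pannexins, up to 4 per partner list with the largest ratios, and the brightest markers. Jun, Fos, Cdh1, Cldn4, Krt14, Krt8, Cdh5, Flt1, Eng, Plvap, markers without signal, and second-day values of genes named for 1 day were added after values were seen. Some genes of the lists are counted but not reported here by name. Members and lists were chosen with earlier results of these data known. Alternatives were median and quantile scaling, other probe sets, normexp (limma 3.58.1, offset 50, on median signals in place of the planned mean signals), flagged spots kept, probe means, no filter and the authors' table. Python 3.11.15 and R 4.3.3 were used, and the ratios were tested on simulated data.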

Additional observations from a re-analysis of the deposited data

Results flagged for a closer look

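Gjb1 was above the uninjured artery at day 7 (0.99 ± 0.38) and below it at day 21 (-0.99 ± 0.36). The day 7 ratio was -0.23 under own-design scaling, which turns its sign, and 0.19 with normexp, and the day 21 ratio was -0.50 with quantile normalization. As reported, the log2 ratio to uninjured was -1.98 for day 21 minus day 7. The difference was not tested, there being 1 array per group, and both ratios share the uninjured array.

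Gja5 had a signal of 170.3 intensity units on the day 7 array at a probe found on that design alone, where the highest negative control without a flag read 3.63 units. That probe enters no comparison of scanner signals.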

How the results depend on the processing

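No paired analysis was possible because each group holds 1 array. The numbers of genes at least 2-fold apart were 1705 at day 7 and 2152 at day 21 against uninjured, and 1734 between the days. They became 3312 (day 7) and 3420 (between the days) under own-design scaling of each array, 849 and 1054 (day 7 and day 21) with normexp, 4462 and 4202 (day 7 and between the days) in the authors' deposited table, which covers other probes unfiltered, and 3369, 4515 and 3084 with no filter on dim probes. The share of higher genes among them was 49.7%, 39.9% and 35.1% as reported. It was 26.2%, 77.1% and 66.0% with median scaling, 5.46% and 95.3% with own-design scaling in the comparisons with day 7, 55.6% and 59.5% with quantile normalization in both comparisons of day 21, and 58.2% and 59.6% in the authors' table there. At day 21 against uninjured it was 74.9% with normexp. The median of all genes moved by over 0.1 under several of these, to -1.23 and 1.18 at the most.

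Of 108 member ratios under alternatives, 52 moved by less than their technical SD and 56 by more. Of the ratios at least 2-fold as reported, 0 changed sign. Among the 52 are all ratios from probe means, which were fixed in advance because each member had 1 probe in a comparison. All ratios with flagged spots kept are there too, and they changed through the scaling alone. Both alternatives also enter the counts of alternatives given above for single members. Relative to the median of all genes, Gja1 lay between -1.83 and -1.51 at day 7 and between -1.82 and -1.25 at day 21. On that measure Gja4 lay between 1.26 and 1.82 at day 7, and Gjb2 between -4.93 and -2.54 for day 21 against day 7. Median and own-design scaling cannot change this measure, because they move every gene of an array by the same amount. The cause of the shifts between alternatives was not tested. Signal over background limits Gjb1 and Gjb2, whose single spots lay near the background limit on the uninjured and day 21 arrays.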
